A study of Mus musculus with 18 samples.

Results

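The Wnt ligands, their Frizzled receptors and their secreted antagonists were described in mouse embryonic fibroblasts (MEFs) in which the endoplasmic reticulum (ER) had been stressed. Members were the loci whose symbol was a numbered Wnt or Fzd gene, Sfrp1 to Sfrp5 or Dkk1 to Dkk4, and 37 of the 51499 loci in the deposited table met this rule. They comprised 19 Wnt ligands, 10 Frizzled receptors, 4 secreted Frizzled-related proteins and 4 Dickkopf antagonists. RNA was sequenced from 18 libraries in 6 groups of 3. The experiment asked how AGO2, the slicing Argonaute of RNA interference, affects mRNAs under ER stress. MEFs labelled Ago2+/+ were given the solvent DMSO, tunicamycin, which blocks N-linked glycosylation, or 500 nM thapsigargin, an inhibitor of the calcium pump of the ER, and MEFs labelled Ago2-/- were given the same agents. The 9 libraries of the Ago2+/+ groups are titled DCR1, for a reason that no source used here gives. Besides this the labels name no dose of tunicamycin and no other allele or agent. Both lines came from another laboratory, and the number of clones or embryos behind each line and the deleted stretch of Ago2 were found in no source used here.

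Wnt proteins are lipid-modified secreted signals that bind the cysteine-rich domain of Frizzled receptors. With LRP5 or LRP6 as co-receptor they stabilise beta-catenin, which acts with TCF and LEF factors on target genes, and with ROR2, RYK or VANGL2 some of them act on cell shape and polarity instead. SFRP proteins bind Wnts outside the cell and Dickkopf proteins block LRP5 and LRP6. In fibroblasts and other mesenchymal cells these signals are known for their part in the choice between bone, fat and contractile fates.

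The values are the authors' FPKM (fragments scaled for transcript length and mapped fragments), 1 value for each group made over its 3 libraries, so that no spread between libraries could be given and no difference below was tested. With length scaled out, levels of different genes can be set side by side. These are bulk values, in which fewer cells of a kind and less RNA per cell cannot be told apart. The labels were checked first. Ago2 was at 22.1, 5.75 and 17.0 FPKM in Ago2+/+ under DMSO, tunicamycin and thapsigargin and at 5.61, 15.5 and 20.7 in Ago2-/-. It was lower in the group labelled Ago2-/- under DMSO but not under the stressors, so it went against the labels there. Dicer1 lay between 17.5 and 32.7 FPKM. Y-chromosomal Uty, Kdm5d, Ddx3y and Eif2s3y were at 6.03 to 32.3 FPKM in Ago2+/+ thapsigargin and Ago2-/- tunicamycin and were listed at 0 in the other 4 groups, and the Xist locus was at 46.6 and 33.5 FPKM in Ago2+/+ DMSO and Ago2-/- thapsigargin and at 0.0574 or less elsewhere. Over all loci the groups formed 3 close pairs, with Spearman correlations of 0.977 to 0.985 within the pairs and 0.876 to 0.906 between other groups. The first pair is Ago2+/+ tunicamycin with Ago2-/- DMSO, the second pair is Ago2+/+ thapsigargin with Ago2-/- tunicamycin, and the third pair is Ago2+/+ DMSO with Ago2-/- thapsigargin. Each pair joins different genotype labels and different treatments, so group names below are the labels as deposited, and a difference by genotype or treatment cannot be told apart from a difference between pairs. Of 12 fibroblast markers 11 reached 1 FPKM in some group, with Vim at 952 to 2634 FPKM and Col1a1 at 5.97 to 651, while Thy1 was listed at 0 in every group and Dcn did not pass 1.06. None of 6 epithelial and none of 4 endothelial markers reached 1 FPKM, and of 4 leukocyte markers only Cd68 did. Of the neural markers, Nes was at 40.4 to 66.5 FPKM in all groups, Sox2 was at 5.72 and 5.86 in the first pair and at 0.00399 or less elsewhere, and Map2 was at 0.00243 and 0.00909 in the first pair and at 12.2 to 23.2 elsewhere.

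Members were found at low to moderate levels, and the ligand that led differed by pair of groups. In all, 17 of the 37 members (45.9%) reached 1 FPKM in at least 1 group, against 25.3% of all 51499 loci. These were 8 of 19 ligands, 7 of 10 receptors, 1 of 4 SFRPs (Sfrp2) and 1 of 4 Dickkopfs (Dkk3). Of these 17, 6 were at 1 FPKM or more in all 6 groups, namely Wnt10b and the receptors Fzd1, Fzd2, Fzd3, Fzd5 and Fzd7. Of the 13032 loci that reached 1 FPKM in at least 1 group, 79.0% were at 1 FPKM or more in all 6. The other 20 members stayed below 1 FPKM in every group, 11 of them below 0.1, and Fzd10 and Dkk4 were listed at 0 throughout.

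**Figure D1:**
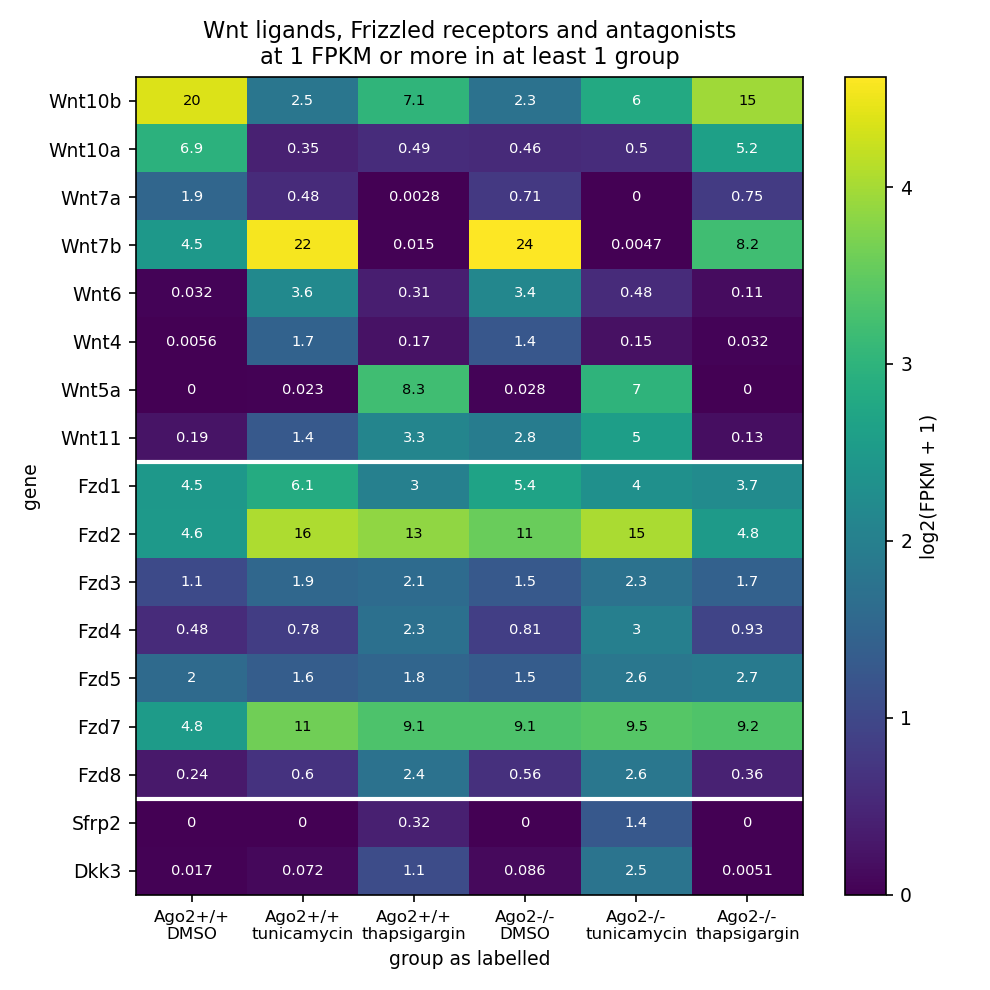
Heat map of the 17 members that reached 1 FPKM in at least 1 group, with the 6 groups as labelled on the horizontal axis, the gene on the vertical axis, colour for log2(FPKM + 1) and the authors' FPKM printed in each cell. White lines part ligands, receptors and antagonists. Wnt7b reached 22.5 and 23.6 FPKM in Ago2+/+ tunicamycin and Ago2-/- DMSO and was near 0 in Ago2+/+ thapsigargin and Ago2-/- tunicamycin, where Wnt5a was at 8.26 and 6.99.

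Wnt10b, a ligand of the beta-catenin branch known for holding back fat cell formation (chromosome 15, 98770712 to 98778150, minus strand, GRCm38), was the only ligand above 1 FPKM in all 6 groups. Its level under DMSO, tunicamycin and thapsigargin was 19.7, 2.51 and 7.10 FPKM in the Ago2+/+ groups and 2.34, 6.03 and 14.5 in the Ago2-/- groups. The third pair was thus highest, the second intermediate and the first lowest, with a ratio of 8.44 between the extremes. Wnt10a, a close relative of Wnt10b needed for teeth and skin appendages (chromosome 1, 74791516 to 74804179, plus strand), stood at 6.88, 0.346 and 0.494 FPKM across the Ago2+/+ groups and 0.460, 0.498 and 5.17 across the Ago2-/- groups. It was above 1 FPKM only in the third pair.

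Wnt7b and Wnt7a are closely related ligands, known from lung, bone and brain vessels and from limb patterning, respectively. Wnt7b (chromosome 15, 85535439 to 85593708, minus strand) reached the highest level of any member, 23.6 FPKM in Ago2-/- DMSO, with 22.5 in Ago2+/+ tunicamycin. It was at 4.54 in Ago2+/+ DMSO and 8.24 in Ago2-/- thapsigargin, and at 0.0153 in Ago2+/+ thapsigargin and 0.00467 in Ago2-/- tunicamycin. Wnt7b therefore had the widest range of all members, 4.62 on the log2(FPKM + 1) scale. Wnt7a (chromosome 6, 91363981 to 91411363, minus strand) stood at 1.89, 0.478 and 0.00276 FPKM in Ago2+/+ under DMSO, tunicamycin and thapsigargin. Among the Ago2-/- groups it was at 0.713 under DMSO, listed at 0 under tunicamycin and at 0.753 under thapsigargin. Both Wnt7 genes had their lowest values in the second pair.

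Wnt6 and Wnt4, ligands known from kidney tubule formation, shared the first pair as their place of highest level. Wnt6 (chromosome 1, 74771892 to 74785322, plus strand) was at 3.56 FPKM in Ago2+/+ tunicamycin and 3.40 in Ago2-/- DMSO. In the remaining groups Wnt6 was at 0.0319 in Ago2+/+ DMSO, 0.114 in Ago2-/- thapsigargin, 0.305 in Ago2+/+ thapsigargin and 0.483 in Ago2-/- tunicamycin. Wnt4 (chromosome 4, 137277489 to 137299726, plus strand) stood at 1.73 and 1.38 FPKM in the same leading groups. Its other values were 0.00560 in Ago2+/+ DMSO, 0.0322 in Ago2-/- thapsigargin, 0.174 in Ago2+/+ thapsigargin and 0.151 in Ago2-/- tunicamycin.

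Wnt5a, the best known ligand of the ROR2 branch (chromosome 14, 28504750 to 28527448, plus strand), was found in the second pair alone. It was at 8.26 FPKM in Ago2+/+ thapsigargin and 6.99 in Ago2-/- tunicamycin, at 0.0232 in Ago2+/+ tunicamycin and 0.0276 in Ago2-/- DMSO, and was listed at 0 in Ago2+/+ DMSO and Ago2-/- thapsigargin. Wnt11, a ligand known from cell movements in the gastrula and from branching of the ureter (chromosome 7, 98835112 to 98855195, plus strand), was at 0.190, 1.44 and 3.31 FPKM in Ago2+/+ DMSO, tunicamycin and thapsigargin, and at 2.83, 4.99 and 0.128 in the Ago2-/- groups in that order. The second pair held its highest levels and the third pair its lowest.

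Summed over the 19 ligands, the level spanned 21.3 to 36.4 FPKM, and the ligand that led the sum differed by pair. Under DMSO, tunicamycin and thapsigargin the sum was 33.9, 34.1 and 21.4 FPKM in Ago2+/+ and 36.4, 21.3 and 29.7 in Ago2-/-. Wnt10b made up 58.3% of it in Ago2+/+ DMSO and 48.9% in Ago2-/- thapsigargin, with Wnt10a (20.3%) and Wnt7b (27.8%) as the respective runners-up. In the first pair Wnt7b made up 65.9% and 65.0%, followed by Wnt6 with 10.5% and 9.35%. The second pair was led by Wnt5a, with 38.6% in Ago2+/+ thapsigargin and 32.8% in Ago2-/- tunicamycin, and Wnt10b came next with 33.2% and 28.2%.

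**Figure D2:**
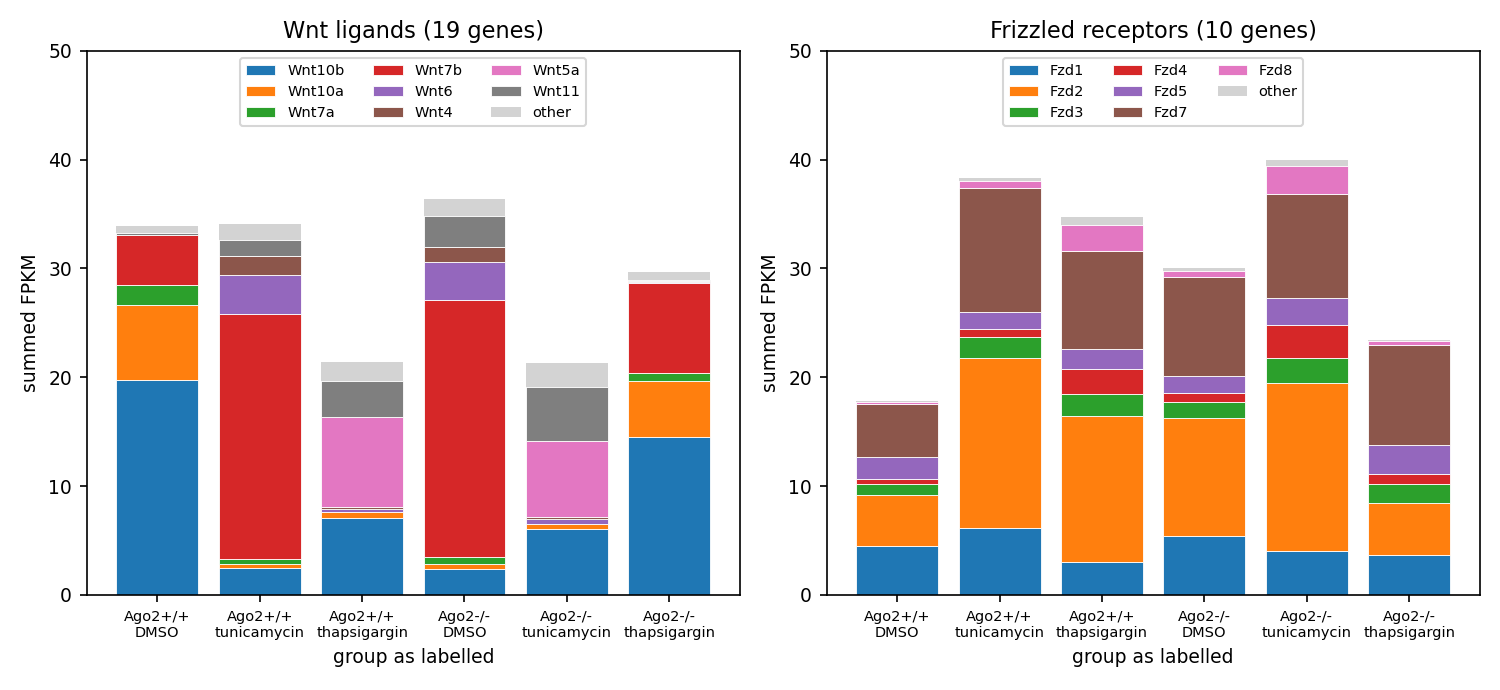
Stacked bars of the summed FPKM (vertical axis, from 0) of the 19 Wnt ligands on the left and the 10 Frizzled receptors on the right, by group as labelled on the horizontal axis. Coloured segments are genes that reached 1 FPKM in at least 1 group, grey ("other") is the rest, and bars have no error since each group has 1 pooled value. The ligand sums lay between 21.3 and 36.4 FPKM with a different leading ligand in each pair of groups, while Fzd2 or Fzd7 led the receptors in all 6 groups.

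The promoters of 3 ligands whose levels followed different pairs are printed to show the letters around their start sites, as RefSeq gives them on GRCm38.p6 from 250 bases before to 50 after the start. Capitals mark the motifs found in the promoter of Wnt11, in order TGACGTGG (UPRE, the site read by unfolded protein response factors), ATCAAAG (the TCF/LEF letters CTTTGAT on the other strand) and TATAAA. No searched motif was found in the promoters of Wnt10b and Wnt6, so they are in lower case.
Wnt10b, chr15:98778101-98778400, minus strand: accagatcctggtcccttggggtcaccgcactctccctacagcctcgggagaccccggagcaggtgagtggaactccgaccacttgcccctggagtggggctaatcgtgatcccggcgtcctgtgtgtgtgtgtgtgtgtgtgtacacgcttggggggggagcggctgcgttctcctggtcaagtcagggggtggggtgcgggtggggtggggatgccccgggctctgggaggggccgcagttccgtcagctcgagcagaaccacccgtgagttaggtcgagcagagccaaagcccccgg
Wnt6, chr1:74771642-74771941, plus strand: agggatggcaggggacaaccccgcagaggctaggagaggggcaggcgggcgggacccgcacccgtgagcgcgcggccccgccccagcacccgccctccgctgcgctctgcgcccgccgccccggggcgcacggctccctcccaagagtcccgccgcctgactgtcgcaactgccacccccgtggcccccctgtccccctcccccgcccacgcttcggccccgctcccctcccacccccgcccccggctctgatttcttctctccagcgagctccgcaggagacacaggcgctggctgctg
Wnt11, chr7:98834862-98835161, plus strand: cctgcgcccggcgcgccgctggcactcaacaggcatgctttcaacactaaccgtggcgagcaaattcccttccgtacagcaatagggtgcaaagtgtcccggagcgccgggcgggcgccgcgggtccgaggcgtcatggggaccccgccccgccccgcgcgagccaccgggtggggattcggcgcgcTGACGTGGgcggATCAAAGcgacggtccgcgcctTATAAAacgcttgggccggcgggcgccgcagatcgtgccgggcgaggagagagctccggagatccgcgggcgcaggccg
RefSeq promoters matched 25 of the 37 members, with 28 promoters in all. Read on both strands, CTTTGAT was in 2 of the 28 (of Wnt11 and Wnt5b) and in 3.73% of all 32851 promoters. TGACGTGG was in 1 (of Wnt11) and in 0.676% of all, and TATAAA was in 4 (of Dkk1, Dkk2, Fzd1 and Wnt11) and in 13.6% of all. The ER stress element (CCAAT, any 9 bases, CCACG) and the amino acid response letters TTGCATCA, held by 0.119% and 0.895% of all promoters, were in none of these windows. The Wnt5b match was in a promoter whose start lies 94961 bases inside the locus from its 5' end. The other promoters of Wnt5b and the other promoter of Wnt11 held no searched motif. Members' promoters had a median of 26.5 CpG and 68.7% GC, against 7 and 52.7% over all promoters. A motif match describes the letters only.

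The neighbouring ligand genes Wnt6 and Wnt10a had their highest levels in different pairs. They lie 6193 bases apart on the plus strand of chromosome 1, yet Wnt6 was highest in the first pair, at 3.56 and 3.40 FPKM, where Wnt10a was at 0.346 and 0.460. In the third pair Wnt10a was at 6.88 and 5.17 FPKM and Wnt6 at 0.0319 and 0.114. Wnt10b and Wnt1 lie 11706 bases apart on chromosome 15 and point away from each other, and Wnt1 did not pass 0.0666 FPKM in any group. On chromosome 11, Wnt3a and Wnt9a are separated by 16175 bases, with highest levels of 0.00606 and 0.837 FPKM, and Wnt9b and Wnt3 by 24328 bases, with 0.00166 and 0.0181. These levels were too low to compare patterns.

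Of the ligands below 1 FPKM, Wnt9a, at up to 0.837 FPKM, Wnt2 (0.725), Wnt5b (0.670) and Wnt2b (0.597) came closest to it. Wnt2 was listed at 0 in the third pair and was at 0.660 and 0.725 FPKM in the first pair, while Wnt2b was highest in the second pair, at 0.417 and 0.597. Wnt16 did not pass 0.119 FPKM. Wnt1, Wnt3, Wnt3a, Wnt8a, Wnt8b and Wnt9b stayed below 0.1 FPKM, and among them Wnt3a, which is widely used as a pure ligand of the beta-catenin branch, was listed at 0 in 5 groups.

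Of the 10 Frizzled receptors 7 reached 1 FPKM. Fzd1, Fzd2 and Fzd7 form a subfamily of similar sequence that is common in mesenchymal cells. Fzd2 (chromosome 11, 102604396 to 102608058, plus strand) was at 4.64 FPKM in Ago2+/+ DMSO and 4.75 in Ago2-/- thapsigargin, and at 15.6, 13.4, 10.9 and 15.5 in Ago2+/+ tunicamycin, Ago2+/+ thapsigargin, Ago2-/- DMSO and Ago2-/- tunicamycin. The third pair was below the other 4 groups, and the ratio of the highest to the lowest level was 3.37. Fzd7 (chromosome 1, 59482424 to 59486955, plus strand) was at 4.81 FPKM in Ago2+/+ DMSO and at 11.4, 9.06, 9.10, 9.55 and 9.23 in the other 5 groups in the order above with Ago2-/- thapsigargin last. Here Ago2+/+ DMSO stood alone as the lowest group, since Ago2-/- thapsigargin was among the rest. Fzd1 (chromosome 5, 4753839 to 4758035, minus strand) went from 3.02 FPKM in Ago2+/+ thapsigargin, through 3.68 in Ago2-/- thapsigargin, 4.00 in Ago2-/- tunicamycin, 4.52 in Ago2+/+ DMSO and 5.42 in Ago2-/- DMSO, to 6.15 in Ago2+/+ tunicamycin.

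Fzd4, which also serves as the receptor of norrin in blood vessels (chromosome 7, 89404355 to 89413134, plus strand), and Fzd8 were highest in the second pair, as Wnt5a was. Fzd4 was at 2.25 and 2.98 FPKM there, and at 0.476 in Ago2+/+ DMSO, 0.784 in Ago2+/+ tunicamycin, 0.810 in Ago2-/- DMSO and 0.928 in Ago2-/- thapsigargin. Fzd8 was at 2.37 and 2.58 FPKM in the second pair, and at 0.241 in Ago2+/+ DMSO, 0.605 in Ago2+/+ tunicamycin, 0.558 in Ago2-/- DMSO and 0.358 in Ago2-/- thapsigargin. For neither receptor did a group outside the second pair reach 1 FPKM.

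Fzd5, the closest relative of Fzd8 (chromosome 1, 64730558 to 64740607, minus strand), differed least of the 7 receptors, between 1.53 FPKM in Ago2-/- DMSO and 2.68 in Ago2-/- thapsigargin, with 2.01, 1.56 and 1.84 in the Ago2+/+ groups under DMSO, tunicamycin and thapsigargin and 2.56 in Ago2-/- tunicamycin. Fzd3, a receptor of planar polarity and axon guidance (chromosome 14, 65192449 to 65262463, minus strand), was at 1.06, 1.93 and 2.06 FPKM in Ago2+/+ DMSO, tunicamycin and thapsigargin and at 1.45, 2.33 and 1.72 in the Ago2-/- groups. Neither differed 2-fold on the log2(FPKM + 1) scale between any groups. Fzd9 reached 0.745 FPKM, Fzd6 0.0237, and Fzd10 was listed at 0. Summed over the 10 receptors, the level under DMSO, tunicamycin and thapsigargin was 17.8, 38.3 and 34.7 FPKM in Ago2+/+ and 30.0, 40.0 and 23.4 in Ago2-/-. Fzd2 led the receptors in the first and second pairs with 36.2% to 40.7% of the sum. Fzd7 led in the third pair with 27.1% in Ago2+/+ DMSO, where Fzd2 made up 26.1%, and 39.5% in Ago2-/- thapsigargin.

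Secreted antagonists were low in all groups. Sfrp2 (chromosome 3, 83766321 to 83789956, plus strand) was at 1.41 FPKM in Ago2-/- tunicamycin and 0.318 in Ago2+/+ thapsigargin, and was listed at 0 in the other 4 groups. Dkk3, a divergent Dickkopf not known to bind LRP6 as Dkk1 does (chromosome 7, 112116017 to 112159057, minus strand), was at 2.45 FPKM in Ago2-/- tunicamycin and 1.10 in Ago2+/+ thapsigargin, and at 0.0167, 0.0723, 0.0858 and 0.00511 in Ago2+/+ DMSO, Ago2+/+ tunicamycin, Ago2-/- DMSO and Ago2-/- thapsigargin. Both antagonists were thus highest in the second pair. Dkk2 reached 0.692 FPKM, Sfrp4 0.221, Sfrp1 0.218, Dkk1 0.00703 and Sfrp5 0.00422, and Dkk4 was listed at 0. No SFRP or Dickkopf passed a mean of 1 FPKM over the groups.

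Contractile markers, like several members, were highest in the second pair. Acta2, Tagln and Cnn1, genes of the contractile apparatus of smooth muscle and activated fibroblasts, reached 1 FPKM, whereas Myh11, which defines mature smooth muscle, did not pass 0.0730 in any group. The sum of these 4 markers was 2417 FPKM in Ago2+/+ thapsigargin and 1800 in Ago2-/- tunicamycin, against 3.97 in Ago2+/+ DMSO, 2.23 in Ago2+/+ tunicamycin, 2.35 in Ago2-/- DMSO and 6.42 in Ago2-/- thapsigargin. The same 2 groups held the Y-linked RNA and the highest levels of Wnt5a, Wnt11, Fzd4, Fzd8, Sfrp2 and Dkk3. The part of contractile cells or of the sex-linked difference in these levels was not tested.

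**Figure D3:**
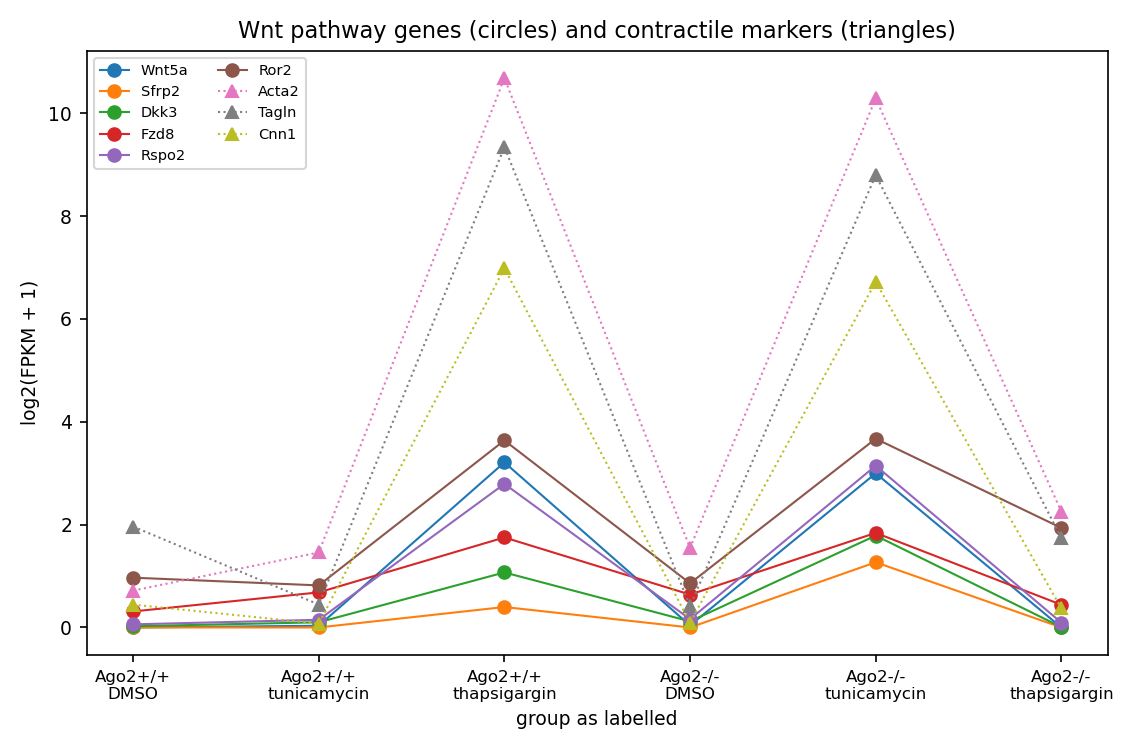
Levels of Wnt5a, Sfrp2, Dkk3, Fzd8, the R-spondin gene Rspo2 and the co-receptor gene Ror2 (circles) and of the contractile markers Acta2, Tagln and Cnn1 (triangles) as log2(FPKM + 1) on the vertical axis, in the 6 groups as labelled on the horizontal axis. Each point is 1 pooled value, and lines only join the values of a gene and stand for no order of groups. The 9 genes were chosen with their values known, and all were highest in Ago2+/+ thapsigargin and Ago2-/- tunicamycin. Genes not shown, such as Wnt7b and Lgr6, were lowest in these groups.

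For the comparisons of the design, a locus was counted as differing where log2(FPKM + 1) differed by at least 1, which is 2-fold on that scale, and where its mean over the 6 groups was at least 1 FPKM. Of all loci 11929 passed this filter, and of the members 13 did, the 6 ligands Wnt5a, Wnt6, Wnt7b, Wnt10a, Wnt10b and Wnt11 and the 7 receptors above. Wnt5a, Wnt6, Wnt7b, Wnt10a, Wnt11, Fzd4 and Fzd8 were below 1 FPKM in some groups and passed through their high groups, so they had to differ somewhere. Counts over these 13 are therefore given as description beside the share of all loci that passed the same rule.

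Tunicamycin against DMSO in Ago2+/+ asked for the response to blocked glycosylation. Higher under tunicamycin were 5 of 13 members (7.70% of all loci), namely Fzd2, Fzd7, Wnt6, Wnt7b and Wnt11, and lower were 2 of 13 (6.32% of all loci), Wnt10a and Wnt10b. On the log2(FPKM + 1) scale the differences were 2.14 for Wnt6, 2.08 for Wnt7b, 1.56 for Fzd2, 1.09 for Fzd7 and 1.04 for Wnt11, and -2.56 and -2.55 for Wnt10b and Wnt10a. Wnt4, below the filter, was 1.44 higher. The median absolute difference was 1.04 among the 13 members and 0.34 among all loci. Across all comparisons of stress or genotype label it lay between 0.54 and 1.35 among the members and between 0.33 and 0.43 among all loci. Since several members passed the filter through their high groups, these medians are description only.

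Thapsigargin against DMSO in Ago2+/+ gave 5 of 13 higher (7.44% of all loci), Wnt5a, Wnt11, Fzd2, Fzd4 and Fzd8, and 3 of 13 lower (5.46% of all loci), Wnt7b, Wnt10a and Wnt10b. Wnt11 was 1.86 higher, Fzd8 1.44, Fzd2 1.35 and Fzd4 1.14, and Wnt5a went from a level listed at 0 to 8.26 FPKM. The ligands Wnt7b, Wnt10a and Wnt10b differed by -2.45, -2.40 and -1.36. Below the filter, Dkk3 was 1.05 higher and Wnt7a differed by -1.53. Fzd2, Wnt11, Wnt10a and Wnt10b were on the same side under both stressors in Ago2+/+, in comparisons that share the DMSO group, while Wnt7b was on opposite sides.

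In Ago2-/-, tunicamycin against DMSO gave 4 of 13 higher (9.50% of all loci), Wnt5a, Wnt10b, Fzd4 and Fzd8, and 2 of 13 lower (8.36% of all loci), Wnt6 and Wnt7b. The differences were 2.96 for Wnt5a, 1.20 for Fzd8, 1.14 for Fzd4, 1.07 for Wnt10b, -1.57 for Wnt6 and -4.62 for Wnt7b. Below the filter, Dkk3 was 1.67 and Sfrp2 1.27 higher, and Wnt4 differed by -1.05. Thapsigargin against DMSO in Ago2-/- gave 2 of 13 higher (6.31% of all loci), Wnt10a by 2.08 and Wnt10b by 2.21, and 4 of 13 lower (7.99% of all loci), Wnt6 by -1.98, Wnt11 by -1.76, Wnt7b by -1.41 and Fzd2 by -1.04. Wnt4, below the filter, differed by -1.20.

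**Figure D4:**
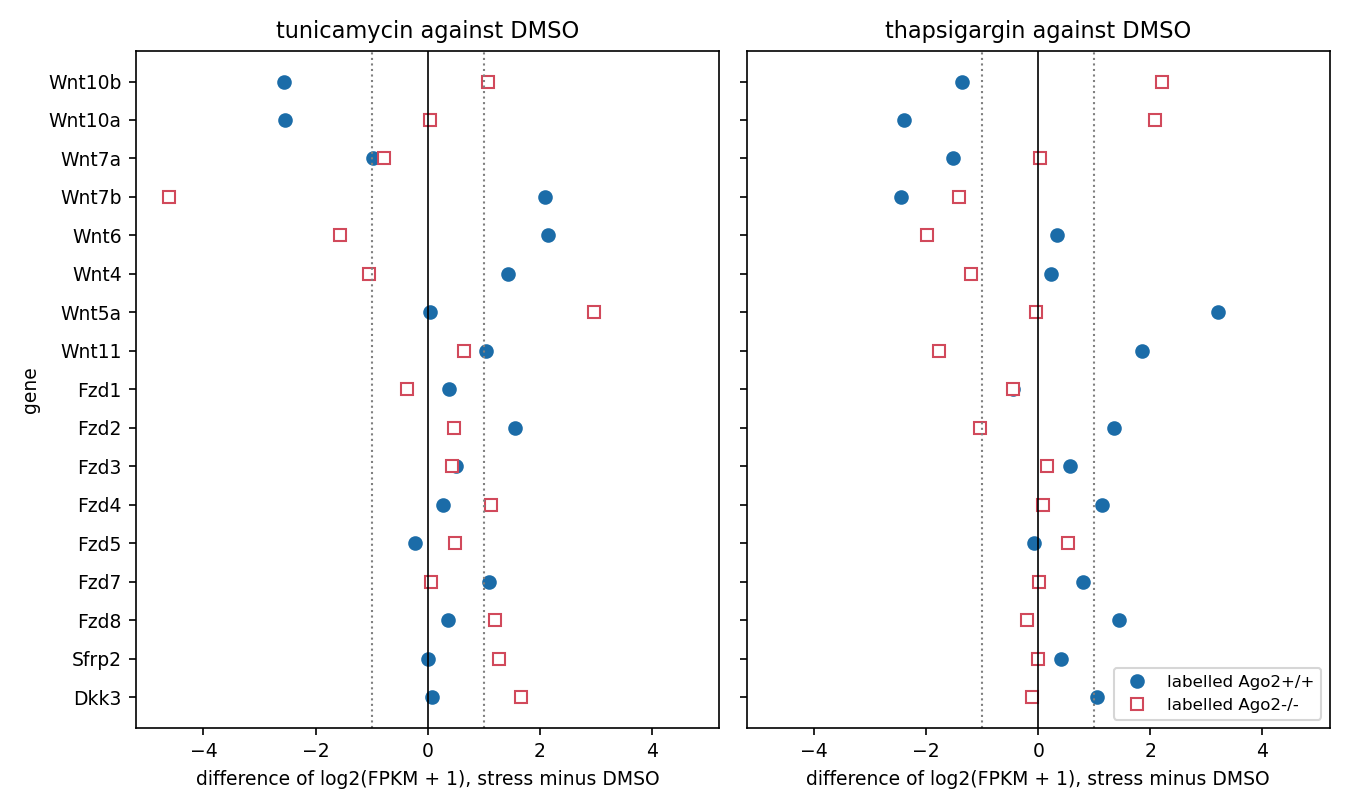
Difference of log2(FPKM + 1), stress minus DMSO (horizontal axis), for tunicamycin on the left and thapsigargin on the right, for the 17 members that reached 1 FPKM in at least 1 group (vertical axis). Filled circles are the groups labelled Ago2+/+ and open squares those labelled Ago2-/-, dotted lines mark 2-fold, and each point is a difference of 2 pooled values without error. Wnt7b under tunicamycin lay at 2.08 in Ago2+/+ and -4.62 in Ago2-/-, and Wnt10a under thapsigargin at -2.40 and 2.08.

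The stress difference had opposite directions in the groups labelled Ago2+/+ and Ago2-/- for several members. Each of these comparisons sets a close pair against a different close pair, so genotype, treatment and pair cannot be told apart. Under tunicamycin 3 of 13 members (6.81% of all loci), Wnt6, Wnt7b and Wnt10b, differed at least 2-fold in opposite directions in Ago2+/+ and Ago2-/-, and Wnt4 did so below the filter. Under thapsigargin 4 of 13 (4.69% of all loci) did, Wnt10a, Wnt10b, Wnt11 and Fzd2. Wnt10b was the only member on both lists. It was lower under either stressor in Ago2+/+ and higher under either in Ago2-/-.

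The genotype labels were then contrasted at each treatment. Under DMSO, Ago2-/- was higher for 4 of 13 members (7.99% of all loci), Wnt7b by 2.15, Wnt6 by 2.09, Wnt11 by 1.69 and Fzd2 by 1.07, and lower for 2 of 13 (6.38% of all loci), Wnt10b with -2.63 and Wnt10a with -2.43. Under tunicamycin it was higher for 4 of 13 (9.39% of all loci), Wnt5a by 2.97, Wnt11 by 1.30, Fzd4 by 1.16 and Fzd8 by 1.16, and lower for 2 of 13 (7.92% of all loci), Wnt7b with -4.55 and Wnt6 with -1.62. Under thapsigargin it was higher for 2 of 13 (5.58% of all loci), Wnt7b by 3.19 and Wnt10a by 2.05, and lower for 4 of 13 (8.19% of all loci). These were Wnt5a, from 8.26 FPKM to a level listed at 0, Wnt11 with -1.94, Fzd2 with -1.32 and Fzd8 with -1.31. No member was on the same side at all 3 treatments. Below the filter, Wnt4 differed by 1.24 under DMSO and -1.24 under tunicamycin, Dkk3 by 1.69 under tunicamycin and -1.06 under thapsigargin, and Sfrp2 by 1.27 under tunicamycin.

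The close pairs were compared last. Between Ago2+/+ tunicamycin and Ago2-/- DMSO 0 of 13 members differed 2-fold (1.04% of all loci), as did 0 of 13 between Ago2+/+ thapsigargin and Ago2-/- tunicamycin (0.998% of all loci) and 0 of 13 between Ago2-/- thapsigargin and Ago2+/+ DMSO (1.87% of all loci). The median absolute differences of the 13 members were 0.07, 0.19 and 0.29 in that order, against 0.08, 0.11 and 0.15 over all loci, so those of the second and the third pair were above those of all loci. With so few loci called in these pairs, a count of 0 among 13 says nothing particular about the members. Over all 37 members the count was also 0 in each pair. The 2 highest groups were a close pair for 10 of 13 members (70.3% of all loci). These were Fzd1, Wnt6 and Wnt7b in the first pair, Fzd3, Fzd4, Fzd8, Wnt5a and Wnt11 in the second and Wnt10a and Wnt10b in the third.

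Across the 6 groups 10 of 13 members had a range of at least 2-fold on the log2(FPKM + 1) scale (32.3% of all loci) and 6 of 13 of at least 4-fold (11.9% of all loci). The 6 were the 6 ligands that passed the filter, with ranges between 2.14 for Wnt6 and 4.62 for Wnt7b. Among the 7 receptors 4 had a 2-fold range and 0 a 4-fold range, from 0.54 for Fzd5 to 1.56 for Fzd2. The median range was 1.56 among the 13 members and 0.73 among all 11929 loci. These ranges describe which members varied and are no test.

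Other genes of the pathway were taken from 8 lists with 70 genes, of which 69 had a locus and 40 passed the filter. A 2-fold range was found for 16 of these 40 (32.3% of all loci) and a 4-fold range for 7 (11.9% of all loci), namely Ror2, Rspo2, Lgr6, Gpc4, Tcf7, Ccnd1 and Vangl2. Counted over the 40, tunicamycin against DMSO in Ago2+/+ gave 3 higher and 1 lower (7.70% and 6.32% of all loci), and thapsigargin gave 6 and 2 (7.44% and 5.46%). For Ago2-/- tunicamycin gave 9 and 3 (9.50% and 8.36% of all loci) and thapsigargin 5 and 2 (6.31% and 7.99%). In Ago2-/- against Ago2+/+ the counts were 3 higher and 3 lower under DMSO (7.99% and 6.38% of all loci), 9 and 3 under tunicamycin (9.39% and 7.92%) and 2 and 6 under thapsigargin (5.58% and 8.19%). Within the close pairs 0, 0 and 1 of the 40 differed (1.04%, 0.998% and 1.87% of all loci). Several of these counts lie near the share of all loci, and the counts of single lists below rest on 2 to 11 genes each and are to be read against the same shares.

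Among 6 co-receptors, of which 5 passed the filter, Ror2, the receptor that Wnt5a is best known to engage, was highest in the second pair, as Wnt5a was. It was at 11.5 FPKM in Ago2+/+ thapsigargin and 11.7 in Ago2-/- tunicamycin, at 2.83 in Ago2-/- thapsigargin, and at 0.957, 0.763 and 0.813 in Ago2+/+ DMSO, Ago2+/+ tunicamycin and Ago2-/- DMSO. Ror2 was 2-fold higher under thapsigargin in Ago2+/+ and under both stressors in Ago2-/-, while Wnt5a was listed at 0 in Ago2-/- thapsigargin. Ptk7 (7.28 to 28.1 FPKM) was higher under both stressors in Ago2-/-, Ryk (37.1 to 85.2) under tunicamycin there, and Lrp6, between 15.9 and 24.3, did not differ 2-fold in any comparison. Under tunicamycin 3 of 5 co-receptors were higher in Ago2-/- than in Ago2+/+ (9.39% of all loci), under DMSO Ptk7 was lower, and under thapsigargin Ror2 was lower.

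Of 5 genes for making, releasing or cleaving ligands, 4 had a locus and 2 passed the filter. Wls, which carries Wnts to the cell surface, was at 56.3, 81.9 and 111 FPKM in Ago2+/+ DMSO, tunicamycin and thapsigargin. In the Ago2-/- groups it was at 81.5, 140 and 37.4. On the log2(FPKM + 1) scale Ago2-/- thapsigargin differed by -1.10 from Ago2-/- DMSO and by -1.55 from Ago2+/+ thapsigargin. Porcn, which adds the lipid, lay between 3.30 and 4.76 FPKM. Notum, which removes that lipid and is itself a target of beta-catenin, was at 2.17 and 1.38 FPKM in the first pair and at 0.456 or less elsewhere, and Trabd2b did not pass 0.149 FPKM.

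Of the 9 genes of the R-spondin branch, which keeps Frizzled receptors on the cell surface, 4 passed the filter. Rspo2 was at 5.93 and 7.85 FPKM in the second pair and at 0.0429 to 0.118 elsewhere. Its receptor gene Lgr6 showed the opposite order, with 0.186 and 0.179 FPKM in the second pair and 2.80 to 6.22 elsewhere, whereas Lgr4 was higher in the second pair (5.34 and 5.25 FPKM) than elsewhere (1.67 to 2.51). Thapsigargin against DMSO in Ago2+/+ gave 2 of 4 higher (Rspo2, Lgr4, against 7.44% of all loci) and 1 lower (Lgr6, against 5.46%), and tunicamycin in Ago2-/- gave 1 higher (Rspo2, against 9.50%) and 1 lower (Lgr6, against 8.36%). By genotype label the counts were 0 and 0 under DMSO, 1 and 1 under tunicamycin and 1 and 2 under thapsigargin. Znrf3, a ligase that removes Frizzled, stayed between 4.80 and 8.62 FPKM, and Rspo1 and Rnf43 did not pass 0.215 and 0.251. Rspo3, below the filter, was at 0.702 and 2.58 FPKM in the groups of the second pair and at 0.153 or less elsewhere.

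Among 12 other secreted or surface modulators 4 passed the filter. Gpc4, a heparan sulfate proteoglycan of the X chromosome, was at 35.8 and 41.5 FPKM in the second pair and 5.83 and 2.01 in the third, and was listed at 0 in both groups of the first pair. Among the 40 pathway genes that passed the filter, it was the 1 that differed 2-fold within a close pair. Apcdd1, a membrane inhibitor of Wnt signalling, was highest in the first pair (8.42 and 9.57 FPKM) and at 2.63 to 4.65 elsewhere. Kremen1, a receptor of Dickkopfs, was lowest there (4.36 and 3.60 FPKM, against 9.26 to 10.5 elsewhere). Higher and lower counts of the 4 were 1 and 1 for tunicamycin and 1 and 0 for thapsigargin in Ago2+/+, and 2 and 1 and 2 and 0 in Ago2-/-. By genotype label they were 1 and 2 under DMSO, 2 and 1 under tunicamycin and 0 and 1 under thapsigargin, each beside the shares of all loci given above for that comparison.

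The cytoplasmic relay was level. Of its 12 genes 11 passed the filter, and only Dact3 differed 2-fold, higher under both stressors in Ago2-/- and higher in Ago2-/- than in Ago2+/+ under tunicamycin (0.241 to 3.36 FPKM over the groups). Ctnnb1, which encodes beta-catenin, lay between 187 and 215 FPKM, Csnk1a1 between 100.0 and 138, Axin1 between 42.3 and 62.9, Dvl2 between 20.0 and 31.7 and Apc between 17.5 and 24.0. Dact1 did not pass 0.606 FPKM.

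Of 8 TCF and LEF factors and their partners 7 passed the filter. Tcf7 was at 1.22, 7.77 and 4.90 FPKM in Ago2+/+ DMSO, tunicamycin and thapsigargin and at 8.86, 5.50 and 2.75 in the Ago2-/- groups, so it was higher under both stressors in Ago2+/+, lower under thapsigargin in Ago2-/-, and higher in Ago2-/- under DMSO. Tcf7l1, which mostly represses, was at 9.23 and 9.42 FPKM in the second pair and 1.87 to 3.42 elsewhere. It was higher under thapsigargin in Ago2+/+ and under tunicamycin in Ago2-/-, and in Ago2-/- against Ago2+/+ it was higher under tunicamycin and lower under thapsigargin. Tcf7l2 (2.96 to 7.20 FPKM), Lef1 (1.12 to 2.35), Bcl9 (6.93 to 10.4) and Pygo2 (30.6 to 42.1) did not differ 2-fold in any of these comparisons.

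The targets of beta-catenin that passed the filter were highest in the first pair, except Lef1, but few of them differed 2-fold. Of all loci that passed the filter 26.6% had the first pair as their 2 highest groups, and 5 targets are too few to set against this share. Axin2, the target most used as a readout of the pathway, did not pass 0.465 FPKM in any group, Sp5 was listed at 0, and Nkd1 did not pass 0.585. Of 12 targets 5 passed the filter. Myc was at 147 and 140 FPKM in the first pair, where Wnt7b led the ligands, and at 73.9 to 111 elsewhere. Znrf3 was at 8.62 and 7.39 FPKM in the first pair and at 4.80 to 7.20 elsewhere. Lef1 was highest in Ago2-/- tunicamycin, at 2.35 FPKM. Ccnd1, which encodes cyclin D1 and answers to many growth signals, was at 207 and 193 FPKM in the first pair, 85.7 and 114 in the third and 13.4 and 10.6 in the second. It was 2-fold higher under tunicamycin in Ago2+/+, lower under thapsigargin there and lower under tunicamycin in Ago2-/-, and in Ago2-/- against Ago2+/+ it was higher under DMSO, lower under tunicamycin and higher under thapsigargin. Tcf7, counted above, is the other one of these 5 that differed 2-fold. Below the filter, Notum was 1.48 higher on the log2(FPKM + 1) scale under tunicamycin in Ago2+/+, and in Ago2-/- against Ago2+/+ it differed by 1.07 under DMSO and -1.29 under tunicamycin. Nkd2, also below the filter, was at 1.01 FPKM at most. Ccnd1 was lowest in the second pair, where Wnt5a, Ror2 and Rspo2 were highest. Whether any ligand had a part in the level of Ccnd1, Myc or another target was not tested.

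Of 12 genes of planar cell polarity 5 passed the filter, and Vangl2 was the only one of these 5 to differ 2-fold. It was at 3.49 and 4.21 FPKM in the second pair, 1.27 and 1.66 in the third and 0.230 and 0.368 in the first, and it was higher in Ago2-/- tunicamycin than in Ago2-/- DMSO and Ago2+/+ tunicamycin. Vangl1 (17.3 to 23.6 FPKM) and Daam1 (6.64 to 10.3) varied little. Prickle1 and Prickle3 reached 1.35 and 1.66 FPKM, and Daam2 reached 0.942.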

How the data were processed

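RNA of 18 MEF libraries, 3 for each of 6 groups, was sequenced. According to the submitters' processing notes the authors used FastQC 0.11.7, HISAT2 2.1.0, StringTie 1.3.4d and Cuffdiff 2.2.1 on GRCm38. Library scaling and strandedness were not given in the sources used here. Each deposited FPKM is the authors' value per group, pooled over 3 libraries, in a table of 772485 rows for 51499 loci and 15 pairs of groups. The table also holds the authors' own comparisons (log2 fold changes, test statistics, p-values, q-values and calls), which were not used. No counts or library totals are given, so the depth is unknown, no interval could be given, and the number of libraries limits the precision.

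Libraries were grouped by title. The Ago2+/+ groups are named DCR1 in titles and table, for a reason not given in the sources used here, and 4 of the 18 libraries carry conflicting source and genotype labels (replicate 2 of each Ago2+/+ group and replicate 3 of Ago2-/- DMSO). They could not be left out of pooled values.

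Differences are of log2(FPKM + 1), a scale that understates differences of low genes. A locus counted as differing at 2-fold on this scale where its mean over the 6 groups was at least 1 FPKM, a level reached by 11929 loci. Members at 1 FPKM or more in a group are given in all groups and the others by their highest level. Genes of the other lists are named where their difference was the largest or smallest of a list in a comparison, or their range at least 4-fold, and other named genes were chosen after their values were seen. Members and lists were chosen with earlier results of these data known. Gene positions are those of the loci as deposited. For Wnt7b, Fzd5, Fzd6, Fzd8 and Sfrp2 they differ from the bounds of the gene in the GENCODE annotation. Motifs were searched in RefSeq promoters (GRCm38.p6). Python 3.11.15, pandas 2.3.3, numpy 2.4.6 and matplotlib 3.10.9 were used. Alternatives were other pseudocounts, no filter, centring, loci with a single symbol, upper quartile scaling and a 4-fold limit.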

Additional observations from a re-analysis of the deposited data

Results flagged for a closer look

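Differences between stress and DMSO that were at least 2-fold and opposite in the groups labelled Ago2+/+ and Ago2-/- were set apart. They rest on 4 pooled values each, and the difference between the genotype labels was not tested. On the log2(FPKM + 1) scale, the difference in Ago2-/- minus that in Ago2+/+ under tunicamycin was -6.70 for Wnt7b (2.08 in Ago2+/+, -4.62 in Ago2-/-), -3.71 for Wnt6 (2.14, -1.57), 3.63 for Wnt10b (-2.56, 1.07) and -2.49 for Wnt4 (1.44, -1.05), whose mean level was under 1 FPKM. Under thapsigargin it was 4.48 for Wnt10a (-2.40, 2.08), -3.62 for Wnt11 (1.86, -1.76), 3.57 for Wnt10b (-1.36, 2.21) and -2.40 for Fzd2 (1.35, -1.04). The same comparison of groups contrasts the close pairs in which Ago2 and the sex-linked genes went against the labels, and genotype, treatment and pair cannot be told apart here.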

How the results depend on the processing

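The counts of members that differed 2-fold kept within 1.5 times their value with a pseudocount of 0.1 or 0.5 FPKM, without the filter, after centring on the median of all loci and over loci with a single symbol, and the count by range also after upper quartile scaling. Without the filter the counts were taken over 35 members, so their share was lower. For tunicamycin against DMSO in Ago2+/+ it was 8 of 35 members in place of 7 of 13. The share of loci was 7.17% in place of 14.0%. A 4-fold limit lowered the counts. Under it 4 of 13 members differed between tunicamycin and DMSO in Ago2+/+, 3 for thapsigargin in Ago2+/+, 2 for tunicamycin in Ago2-/-, 2 for thapsigargin in Ago2-/-, 2 between the genotype labels under tunicamycin, 3 between them under thapsigargin, and 6 by range over the groups. The stricter limit itself sets these falls. Of 595 recomputed differences of single genes 576 stayed in place, 19 moved and 0 reversed, 14 of the 19 with a pseudocount of 0.1 FPKM, 4 with 0.5 and 1 with centring. No paired analysis was possible because the deposited table holds 1 pooled value per group and carries no replicate numbers. For the same reason no library could be left out in turn, no spread between libraries was available, and differences of genes near 0 FPKM cannot be told from the error of an estimate of unknown depth.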
